A study of Mus musculus with 8 samples.

Results

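Matricellular glycoproteins are secreted into the extracellular matrix and modulate how cells interact with it, whereas fibronectin is one of its assembled fibres. The genes described here are Mfge8, Fn1, Sparc, Sparcl1, Thbs1, Thbs2, Postn, Tnc and Cilp, measured in brown adipose tissue (BAT) of lean and leptin-receptor-deficient mice. They were chosen by function and from their measured values in these same libraries, with the db/db against WT difference already known, and therefore their levels and intervals are given as a description, with no p-value. Which of them passed the threshold of the fit across all genes is likewise a description and supports nothing about them. All 9 were found among the 31053 genes of the count table, on 9 different chromosomes, and 8 of the 9 passed the filter on low counts that left 9264 genes to be tested. Tnc did not pass it.

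The study sequenced RNA of BAT from 4 WT and 4 db/db mice, each mouse giving 1 library. All were male, of the C57BL6/J background in the labels, kept on a normal diet, 8 weeks old and fasted before the tissue was taken. The db/db animals carry the Lepr db mutation, which disables the leptin receptor and makes the mice obese and diabetic, and came as B6.BKS(D)-Leprdb/J from the Jackson Laboratory. The study's methods name Charles River as the source of WT mice and its list of resources names the Jackson Laboratory, and if the sources differed, genotype and supplier cannot be told apart. The genotype could not be checked in the counts, since Lepr had 0 counts in each of the 8 libraries. The labels also name a stromal vascular fraction, the part of the tissue without adipocytes, but adipocyte transcripts were abundant in every library. Ucp1, the uncoupling protein of brown adipocytes, was present at 1892 to 2754 CPM (counts scaled to a common library size) in the WT libraries and at 1056 to 2027 CPM in those of db/db mice. Adipoq, which encodes adiponectin, reached 1245 to 1828 CPM in WT libraries and 1684 to 2112 CPM in db/db libraries. This goes against a fraction without adipocytes, and the libraries are called BAT here.

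The WT libraries held 2374079 to 2615009 counts and the db/db libraries 2382722 to 3240074 (exact two-sided permutation test, p = 0.114, n = 4 and 4). At this depth 3 counts correspond to 0.902 to 1.33 CPM. In the fit across all genes 2568 of 9264 genes (27.7%) differed between the genotypes at an adjusted p under 0.05 (edgeR quasi-likelihood test, Benjamini-Hochberg), 1466 of them (15.8%) higher and 1102 (11.9%) lower in db/db.

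Mfge8, also called lactadherin, bridges phosphatidylserine on dying cells to integrins of the engulfing cell. Fibronectin, encoded by Fn1, is an adhesive fibre-forming glycoprotein. Both are bound by integrins through the tripeptide arginine-glycine-aspartate, a short loop of the ligand that fits between the α and β subunits. Sparc and Sparcl1 are related collagen-binding proteins, Thbs1 and Thbs2 are thrombospondins that bind CD36 and CD47, Postn (periostin) and Tnc (tenascin C) are typical of remodelling matrix, and Cilp is a matrix protein first described in cartilage.

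Integrin-binding tripeptides were looked up in the coding sequence of the longest coding transcript of each member, because they are what Mfge8 and Fn1 have in common beyond their expression. In-frame codons for arginine-glycine-aspartate were present in 5 of the 9 members. Fn1 held 2 and Mfge8, Thbs1, Thbs2 and Cilp held 1 each, while Sparc, Sparcl1, Postn and Tnc held none. The share of members with the tripeptide was 55.6%, and that of the protein-coding genes that passed the filter was 8.67% (789 of 9102). The members include Tnc, which did not pass the filter, and were chosen as matrix and adhesive proteins. Coding lengths were not matched, and nothing is read from these shares. A tripeptide in the sequence does not show that it is exposed to integrins. The spliced coding sequences are printed 5′ to 3′ on the coding strand with the 3 codons in capitals and 24 bases on each side, with GRCm38 (mm10) coordinates of the gene annotation, all in coding exons. The span of Thbs1, Thbs2 and Cilp includes an intron that is left out of the printed run.
Fn1, chr1:71606722-71606778, minus strand, exon 30, codon 1614: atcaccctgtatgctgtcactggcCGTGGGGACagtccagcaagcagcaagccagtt
Fn1, chr1:71597419-71597475, minus strand, exon 40, codon 2181: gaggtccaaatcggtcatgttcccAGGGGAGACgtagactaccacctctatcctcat
Mfge8, chr7:79145284-79145340, minus strand, exon 3, codon 87: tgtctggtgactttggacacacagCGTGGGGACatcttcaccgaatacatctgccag
Thbs1, chr2:118122665-118122914, plus strand, exons 17 and 18, codon 927: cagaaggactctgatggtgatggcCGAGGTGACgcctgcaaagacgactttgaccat
Thbs2, chr17:14671460-14673159, minus strand, exons 17 and 18, codon 928: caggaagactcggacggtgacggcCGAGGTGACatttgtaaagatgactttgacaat
Cilp, chr9:65270385-65272843, plus strand, exons 5 and 6, codon 145: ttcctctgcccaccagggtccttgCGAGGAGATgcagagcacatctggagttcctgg
The codons of Fn1 at position 1614 and of Mfge8 were spelled alike, and so were those of Thbs1 and Thbs2, which lie at neighbouring positions of these related proteins.

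Mfge8 (chr7:79133768-79149060) was measured at 182.1, 120.3, 168.3 and 153.2 CPM in WT replicates 1 to 4 and at 1717, 990.1, 1409 and 1469 CPM in db/db replicates 1 to 4. All db/db libraries lay far above all WT libraries, the lowest db/db value being 5.44 times the highest WT value. The WT mean was 156 ± 26.6 CPM and the db/db mean 1396 ± 302 CPM (SD, n = 4), a log2 fold change of 3.16 with a standard error of 0.18, or 8.95-fold (95% interval 6.85 to 11.7). These values rest on 285 to 450 counts per WT library and 3112 to 5707 counts per db/db library. Of all genes tested 96 (1.04%) had a larger log2 fold change than Mfge8. Of the 671 genes with at least its mean CPM in WT, itself included, 0 had a larger one. Mfge8 was chosen with this difference known, so that its rank is a description and supports nothing. In a tissue measured as a whole, more RNA per cell and more cells of an expressing type cannot be told apart, which holds for each gene below.

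Fn1 (chr1:71585520-71653200) was measured at 4.05, 2.95, 4.88 and 14.9 CPM in WT and at 54.8, 30.5, 31.9 and 39.1 CPM in db/db. WT replicate 4 stood apart from the other WT libraries, and still lay below the lowest db/db library, which was 2.06 times higher. The means were 6.69 ± 5.50 CPM and 39.1 ± 11.1 CPM (SD, n = 4), a log2 fold change of 2.56 (standard error 0.36) or 5.88-fold (95% interval 3.49 to 9.92). WT libraries held 7 to 35 counts of Fn1 and db/db libraries 72 to 182. Without WT replicate 4 the log2 fold change of Fn1 was 3.27.

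**Figure D1:**
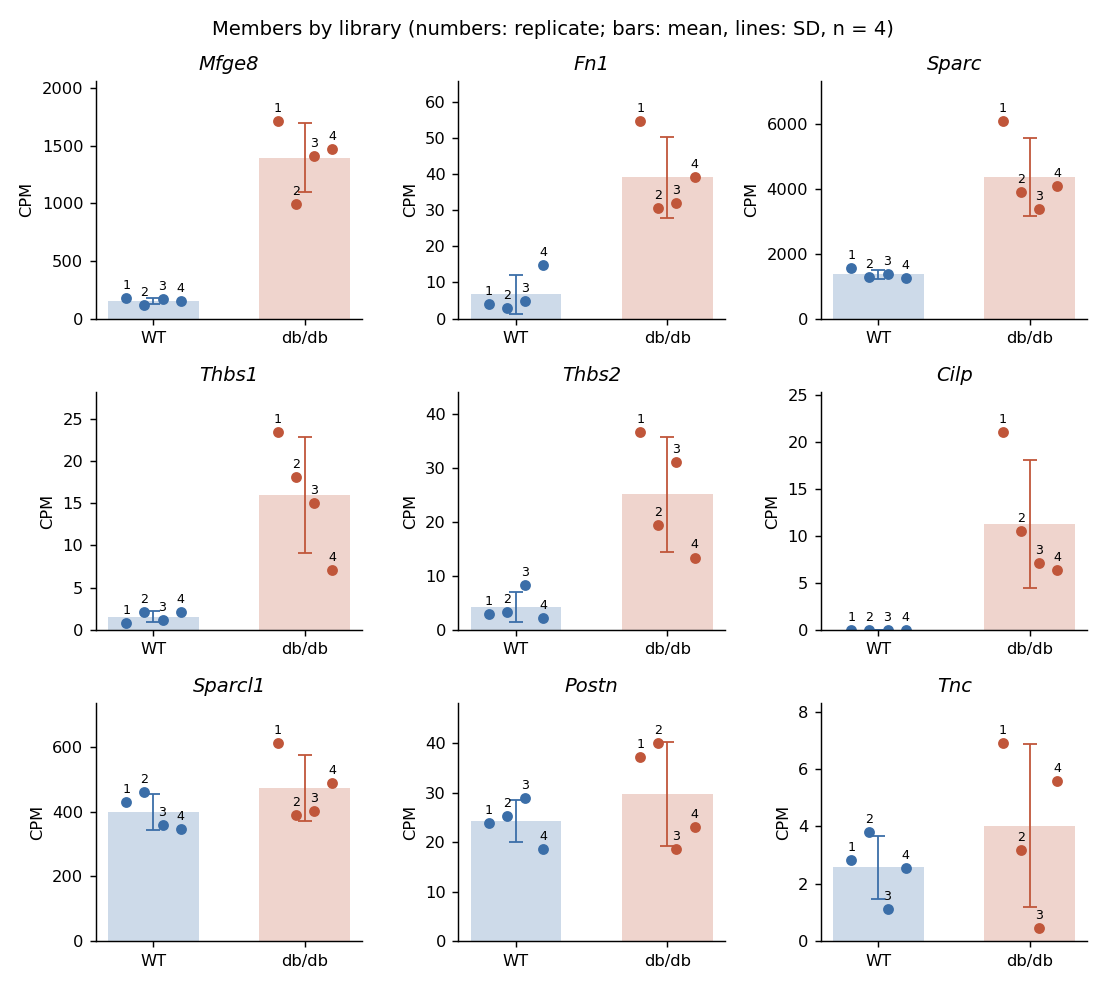
CPM of the 9 members in each library, with WT in blue and db/db in orange. Each point is 1 library with its replicate number, bars are means and lines are SD (n = 4). The groups do not overlap for Mfge8, Fn1, Sparc, Thbs1, Thbs2 and Cilp and overlap for Sparcl1, Postn and Tnc.

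Sparc, a collagen-binding protein that accompanies matrix deposition, was the member with the most counts in every library. Sparc (chr11:55394500-55423183) was measured at 1563, 1277, 1380 and 1259 CPM in WT and at 6090.0, 3892, 3372 and 4078 CPM in db/db. The lowest db/db library was 2.16 times the highest WT library. The means were 1369.5 ± 139.6 CPM and 4358 ± 1193 CPM (SD, n = 4), a log2 fold change of 1.67 (standard error 0.18) or 3.18-fold (95% interval 2.46 to 4.11).

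Its relative Sparcl1 (chr5:104079111-104113733), a protein of vessels and stroma, behaved differently. It was measured at 429.4, 461.3, 358.9 and 346.8 CPM in WT and at 613.1, 389.7, 401.2 and 489.2 CPM in db/db. The groups overlapped, since 2 db/db libraries lay inside the WT range. The means were 399 ± 55.2 CPM and 473 ± 103 CPM (SD, n = 4), with a log2 fold change of 0.25 (standard error 0.16, 95% interval -0.08 to 0.58). The ratio of Sparc to Sparcl1 counts within a library, which no scaling between libraries can change, averaged 3.47 ± 0.479 for WT mice and 9.17 ± 0.918 for db/db mice (SD, n = 4). Its range was 2.77 to 3.85 in WT and 8.34 to 9.99 in db/db.

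Thbs1 (chr2:118111876-118127133), a thrombospondin that activates latent TGF-β and restrains vessel growth, was close to the detection limit in WT. It was measured at 0.809, 2.11, 1.13 and 2.12 CPM in WT, from 2 to 5 counts per library. The db/db libraries held 23.5, 18.1, 15.1 and 7.07 CPM, from 19 to 78 counts. The lowest db/db library lay above all WT libraries, and the spread among db/db mice was wide, with replicate 4 lowest. The log2 fold change was 3.36 (standard error 0.44), or 10.2-fold with a 95% interval of 5.37 to 19.5.

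Thbs2 (chr17:14665500-14694235), the other thrombospondin of this subgroup and a regulator of collagen fibrils, was measured at 2.83, 3.38, 8.27 and 2.12 CPM in WT. It was measured at 36.7, 19.4, 31.0 and 13.4 CPM in db/db. WT replicate 3 was the highest WT library and db/db replicate 4 the lowest of its group, with no overlap. The means were 4.15 ± 2.79 CPM and 25.1 ± 10.6 CPM (SD, n = 4), a log2 fold change of 2.56 (standard error 0.39) or 5.90-fold (95% interval 3.33 to 10.5).

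Postn (chr3:54361109-54391037), a periostin that cross-links collagen in remodelling tissue, was measured at 23.9, 25.3, 28.9 and 18.7 CPM in WT and at 37.3, 40.1, 18.6 and 23.1 CPM in db/db. The db/db mice were split, with replicates 1 and 2 above all WT libraries and replicates 3 and 4 below their highest value. The means were 24.2 ± 4.25 CPM and 29.8 ± 10.5 CPM (SD, n = 4), with a log2 fold change of 0.31 (standard error 0.24, 95% interval -0.19 to 0.81).

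Tnc (chr4:63959785-64047015), the tenascin of wounds and developing tissue, was barely detected. It was measured at 2.83, 3.80, 1.13 and 2.55 CPM in WT and at 6.92, 3.18, 0.443 and 5.58 CPM in db/db, from 1 to 23 counts per library. The db/db libraries spanned a wider range than WT and reached both above and below it, so that no difference was detectable at this depth.

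Cilp (chr9:65265180-65280605) had 0 counts in all 4 WT libraries and 21.1, 10.5, 7.09 and 6.32 CPM in db/db, from 16 to 70 counts. It was the only member without a count in one genotype. Against 3 counts in the shallowest WT library, the mean of 11.2 ± 6.79 CPM in db/db (SD, n = 4) was at least 8.83-fold higher. This bound and the detection limits cover counting error only.

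**Figure D2:**
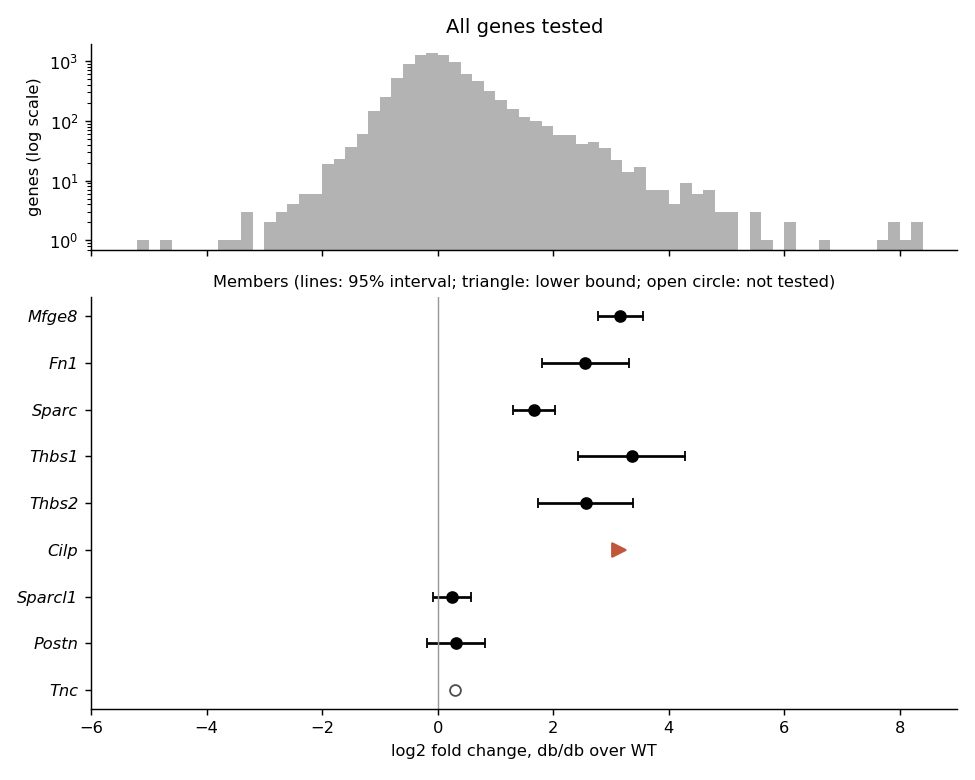
Log2 fold change of db/db over WT, as a histogram of all 9264 genes tested (log count axis) above the 9 members. Points with lines are the fitted value and its 95% interval, the triangle for Cilp is the lower bound, and the open circle for Tnc is the difference of mean log2 CPM, which was not tested. Mfge8, Thbs1 and the bound of Cilp lie above 3, and the intervals of Sparcl1 and Postn include 0.

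Counted together, 6 of the 8 members tested (Mfge8, Fn1, Sparc, Thbs1, Thbs2 and Cilp) were higher in db/db, 0 were lower and Sparcl1 and Postn did not pass the threshold. Over all genes 27.7% were called, with 15.8% of all genes higher and 11.9% of all genes lower in db/db. In the same 6 members every db/db library lay above every WT library, which was the case for 1422 of 9264 genes (15.3%). The median log2 fold change was 2.56 over the members tested and 0.01 over all genes. Since the members were chosen with this difference known, nothing is read from these counts or from this median. With at least 10 counts required in every library, 4 members could be tested and 2 were called, because Fn1, Thbs1, Thbs2 and Cilp then fell out. With a skeletal muscle score as a covariate Fn1, Thbs1 and Thbs2 were no longer called, with log2 fold changes of 1.61, 1.995 and 1.5045. Skeletal muscle, fibroblast and macrophage markers were higher in db/db as well, and their part in the members' levels was not tested.

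The differences between the genotypes were unequal among the members, and so were their shares of the members' counts. Together they took 0.197 ± 0.0235% of a WT library and 0.632 ± 0.198% of a db/db library (SD, n = 4). Sparc made up 69.7 ± 1.61% of the members' counts in WT and 68.3 ± 3.86% in db/db. The count ratio of Mfge8 to Sparcl1 was 0.399 ± 0.0940 in WT and 2.96 ± 0.412 in db/db, so that Mfge8 passed Sparcl1 in each db/db library and in no WT library. The count ratio of Mfge8 to Sparc was 0.114 ± 0.0132 in WT and 0.329 ± 0.0745 in db/db. Fn1 had fewer counts than Postn in every WT library (ratio 0.117 to 0.795), whereas the ratio ranged from 0.762 to 1.71 in db/db.

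Levels of different genes were compared per kilobase of annotated exon, although it is not stated whether read numbers scale with transcript length in this kind of library. In WT the order of these levels began with Sparc (362 CPM per kb), Sparcl1 (136) and Mfge8 (33.2), followed by Postn (2.78 CPM per kb) and by Thbs2 (0.593), Fn1 (0.572), Tnc (0.331) and Thbs1 (0.254). Thbs2 and Fn1 did not differ beyond their spread in WT (SD 0.399 and 0.471 CPM per kb), where the Fn1 mean was raised by replicate 4. In db/db it began with Sparc (1150.4 CPM per kb), Mfge8 (297) and Sparcl1 (161), and Thbs2 (3.59), Postn (3.42) and Fn1 (3.34) followed with values closer to each other than their spread between mice. Cilp (2.64 CPM per kb), Thbs1 (2.62) and Tnc (0.519) came last in db/db.

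How the members varied among mice of the same genotype was also described. After the genotype mean was removed, the median correlation of log2 CPM over the 28 pairs of members tested was r = 0.29 (range -0.29 to 0.82, 8 libraries), with 23 of 28 pairs above 0. The highest values were 0.82 for Sparc with Cilp and 0.77 for Sparc with Sparcl1. Cilp, which passed the filter through db/db and does not vary in WT at 0 counts, is in 7 of the 28 pairs, whose r rest on the 4 db/db libraries on the side of Cilp. Over the 21 pairs without Cilp, an alternative chosen after seeing the data, the median was 0.28, with 16 above 0. Most of these pairs still hold Fn1, Thbs1 or Thbs2, which also passed the filter through db/db and had few counts in WT. These r share 8 libraries, and 1 of them set their level, since without db/db replicate 1 the median was -0.019. That library had the highest value of 8 of the 9 members, Postn being highest in db/db replicate 2. The mean deviation of the members tested was 0.56 on the log2 scale in db/db replicate 1, and -0.07, -0.17 and -0.31 in replicates 2 to 4. Without db/db replicate 1 the log2 fold change was 3.04 for Mfge8, 2.34 for Fn1, 1.46 for Sparc, 3.09 for Thbs1 and 2.30 for Thbs2, and the same 6 members were called.

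**Figure D3:**
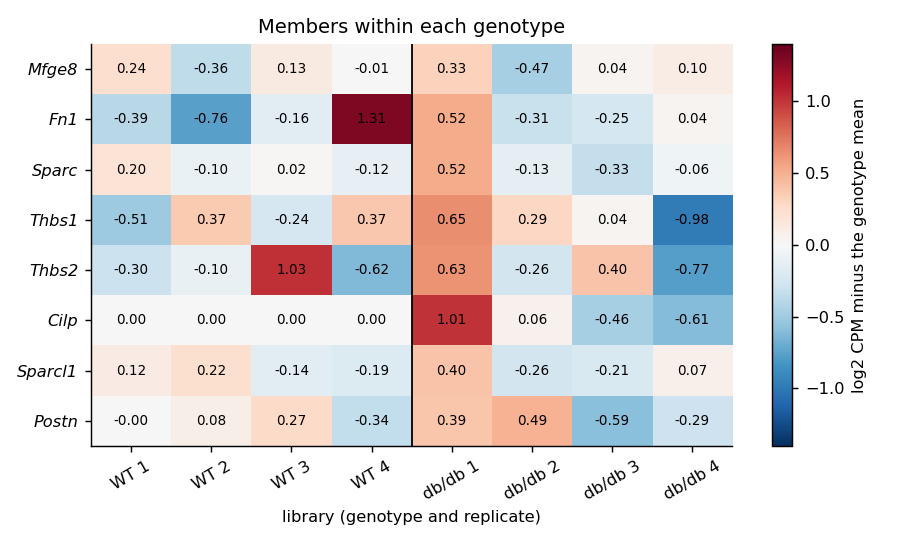
Deviation of log2 CPM from the mean of the library's own genotype for the 8 members that passed the filter (rows) in each library (columns), with red for above and blue for below the mean. Db/db replicate 1 is above its genotype mean in all 8 rows, and Fn1 in WT replicate 4 is the largest single deviation.

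The genes whose deviations within genotypes were most like the mean of the members were Isy1 (r = 0.98), Myl1 (r = 0.97), Bin1, Tmod4 and Mmd (r = 0.96 each, 8 libraries). They were picked as the highest of many genes over few libraries, and the mean they were set against was highest in db/db replicate 1. Without that library, a choice made after seeing the data, r was 0.93 for Isy1, 0.85 for Myl1, 0.67 for Bin1, 0.74 for Tmod4 and 0.62 for Mmd (7 libraries). Myl1 and Tmod4 encode proteins of the muscle sarcomere, and Bin1 is known from the muscle membrane system. Isy1 encodes a splicing factor. Mmd shares its strand with an overlapping annotated gene that had 130 counts, and Isy1 with Gm45140, which had 0 counts, and with B130021K23Rik, which was not measured in the table, so that the counts of both are uncertain.

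Marker genes of several other cell types differed between the genotypes, and their counts stand against 15.8% of all genes higher and 11.9% lower. The sums of fibroblast, macrophage, lipid-associated macrophage, pericyte and smooth muscle, skeletal muscle, and tendon and cartilage markers were highest in db/db replicate 1, whereas those of white adipocyte, brown adipocyte and Schwann cell markers were not. All 14 skeletal muscle markers tested were higher in db/db, and their summed level was 463 to 1652 CPM over the WT libraries, against 2467 to 12323 CPM over those of db/db mice, with the highest sum in db/db replicate 1. All 10 fibroblast markers tested were higher, with sums of 630 to 796 CPM in WT and 1298 to 2813 CPM in db/db. Of 9 macrophage markers tested 8 were higher, with sums of 157 to 213 CPM in WT and 734 to 1293 CPM in db/db. Markers of lipid-associated macrophages summed to 1032 to 1171 CPM in WT libraries and 1775 to 2571 CPM in db/db libraries, with 9 of 9 higher. Of the white adipocyte markers tested 3 of 4 were higher, and of the brown adipocyte markers 2 of 7 were higher and 4 lower. Endothelial markers went the other way, with 3 of 8 lower (Kdr, Tek and Emcn), 0 higher and sums of 396 to 454 CPM in WT and 289 to 339 CPM in db/db. Pericyte and smooth muscle sums were 203 to 243 CPM in WT and 333 to 450 CPM in db/db, with 3 of 6 markers higher. Of 8 tendon and cartilage markers Prg4 was tested and was higher, with counts that are uncertain because its exons overlap Tpr on the opposite strand (up to 438 counts), and Mkx, Chad, Acan and Col2a1 had 0 counts everywhere. Of 3 Schwann cell markers tested 2 were higher, with sums of 99.95 to 174 CPM in WT and 329 to 538 CPM in db/db, the lowest db/db sum being that of replicate 1. Of the mesothelial markers Lrrn4 was tested and was lower, with a log2 fold change of -2.68. The sums carry the same uncertainty where exons overlap on the opposite strand, mainly for Egfl7 among the endothelial markers (Agpat2, up to 799 counts) and Mb among the muscle markers (Apol6, up to 384 counts).

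Within the genotypes the order of the members' levels was set beside that of the muscle sums. In db/db only Thbs2 ranked the libraries as the muscle sum did, and in WT its 5 to 22 counts per library allow no firm ranking. Thbs1 in db/db did not follow it, and in WT its 2 to 5 counts per library allow no ranking. Fn1 was highest in WT replicate 4, the WT library with the highest muscle sum. The same library had the lowest Sparc and Sparcl1 levels of its group. Db/db replicate 4, with the lowest muscle sum of its group, had more Mfge8 and more Fn1 than replicates 2 and 3. With the muscle score as a covariate in the fit, 3 of 8 members were called, namely Mfge8, Sparc and Cilp. The log2 fold change was then 3.05 for Mfge8 and 1.42 for Sparc. The number of genes called over the whole table was 471 in that fit.

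**Figure D4:**
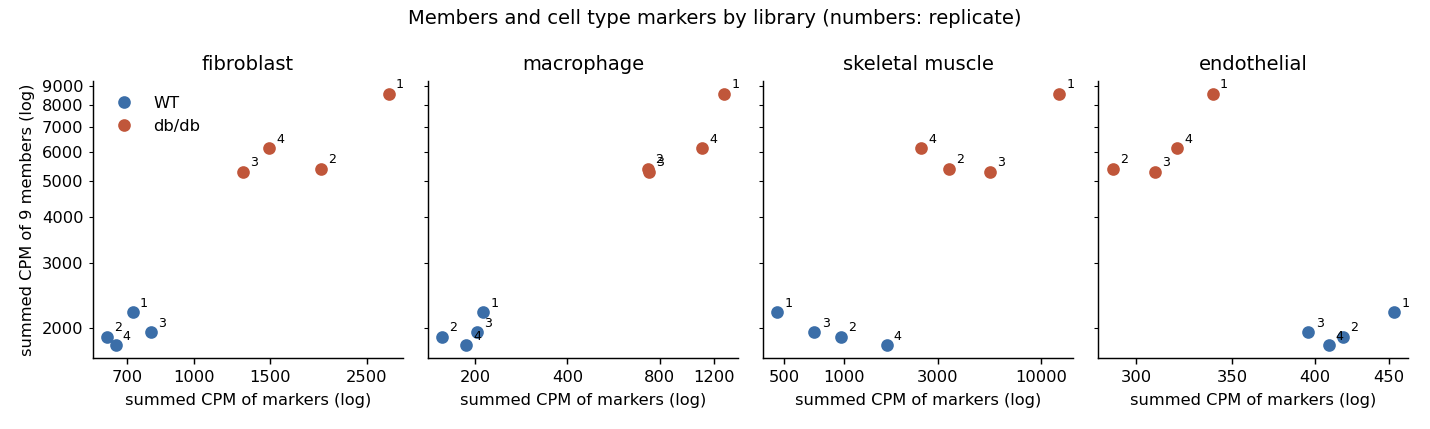
Summed CPM of the 9 members (vertical axis, log scale) against the summed CPM of fibroblast, macrophage, skeletal muscle and endothelial markers (horizontal axes, log scale) in the 8 libraries, with WT in blue, db/db in orange and replicate numbers beside the points. Db/db libraries are higher in the first 3 marker sums and lower in the endothelial sum, and db/db replicate 1 has the highest member, fibroblast, macrophage and muscle sums.

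The receptors and relatives of these proteins were counted from lists of known function, drawn up with earlier results of these data known. Of 12 integrin subunits 3 passed the filter and 2 were higher in db/db, against 15.8% of all genes, with a median log2 fold change of 0.56 against 0.01 over all genes. Itgb1, the β1 subunit shared by many matrix receptors, rose from 104 ± 4.23 to 153 ± 9.82 CPM (SD, n = 4), a log2 fold change of 0.56 (edgeR adjusted p = 0.00215). Itgb5, the partner of αv in the integrin that binds Mfge8, rose from 35.5 ± 6.03 to 52.7 ± 2.93 CPM (SD, n = 4), with a log2 fold change of 0.57 (edgeR adjusted p = 0.0134). Itgav itself, the third subunit measured, was at 8.17 ± 2.78 CPM (WT) and 8.75 ± 3.85 CPM (db/db; SD, n = 4), a log2 fold change of 0.12 that did not pass the test (edgeR adjusted p = 0.84, 95% interval -0.64 to 0.89). Without WT replicate 4, 1 of the 3 subunits (Itgb1) was called, and with the muscle score as a covariate 0 were.

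Of 14 other receptors 11 were tested, and Cd36, Cd47, Lrp1, Stab1 and Sdc2 were higher, 0 lower, against 15.8% of all genes higher, with a median log2 fold change of 0.50. Sdc2, a heparan sulphate co-receptor for matrix proteins, rose from 11.9 ± 2.19 to 25.4 ± 6.62 CPM (SD, n = 4), a log2 fold change of 1.10 (edgeR adjusted p = 0.00203). Stab1, a scavenger receptor of macrophages and sinusoidal endothelium that takes up Sparc, rose from 9.69 ± 4.97 to 22.9 ± 11.2 CPM (SD, n = 4) with overlapping groups and a log2 fold change of 1.25 (edgeR adjusted p = 0.0119). Stab1 shares exonic sequence with Nt5dc2 on the opposite strand, and its counts are uncertain because strand use in counting is not stated. The number of these receptors called was 2 without db/db replicate 1 (Cd36 and Sdc2), 2 without WT replicate 2 (Stab1 and Sdc2), 3 without WT replicate 4 and 0 with the muscle score as a covariate, so that without db/db replicate 1 or WT replicate 2 the share called was near that of all genes.

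Of 31 other matricellular genes 14 were tested and 9 were higher in db/db, namely Smoc2, Fstl1, Ccn5, Tgfbi, Ecm1, Matn2, Nid1, Lgals1 and Lgals3, with 0 lower, against 15.8% of all genes higher, and a median log2 fold change of 1.75. Lgals3, galectin-3, a lectin made in large amounts by macrophages and also among the markers of lipid-associated macrophages above, rose from 8.08 ± 5.92 to 192.1 ± 76.6 CPM (SD, n = 4), a log2 fold change of 4.54 (edgeR adjusted p = 7.83e-08). Ccn5, a member of the cellular communication network family, had 0 counts in each WT library and 18 to 48 counts in db/db libraries, and like Cilp it passed the filter through db/db alone. The number of genes of this list called was 4 with the muscle score as a covariate and 5 of 7 tested with at least 10 counts in every library.

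Of 24 genes of apoptotic cell uptake, the process Mfge8 takes part in, 18 were tested, 11 were higher and 1 lower in db/db, against 15.8% and 11.9% of all genes, with a median log2 fold change of 0.71. Anxa1, a phospholipid-binding protein exposed on dying cells and phagocytes, rose from 2.04 ± 0.394 to 38.5 ± 14.0 CPM (SD, n = 4), a log2 fold change of 4.22 (edgeR adjusted p = 8.87e-08). With 4 to 6 counts per WT library, Anxa1 passed the filter through db/db. C1qb, a chain of the complement opsonin C1q that macrophages make, rose from 18.8 ± 5.57 to 100.6 ± 39.2 CPM (SD, n = 4), a log2 fold change of 2.41 (edgeR adjusted p = 2.45e-06), and is, like C1qa and C1qc of this list, also among the macrophage markers above. The gene that fell was Xkr8, a scramblase that exposes phosphatidylserine, from 5.79 ± 1.38 to 1.88 ± 1.34 CPM (SD, n = 4), a log2 fold change of -1.62 (edgeR adjusted p = 0.0222). It is named here after its values were seen. With the muscle score as a covariate 6 of these genes were called in place of 12. Itgav, Itgb5, Stab1, Lrp1 and Calr belong to more than one of these lists.

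Promoter windows (RefSeq, GRCm38.p6, from 250 bases before to 50 bases after the start) were searched because members of one group moved unequally. There were 8 windows for 6 of the members, and Fn1, Sparcl1 and Thbs1 had no entry. Motifs searched on both strands were TATAAA (the TATA box, in 13.6% of 32851 windows), CCAAT (37.4%), TGANTCA (AP-1, 7.81%), CAGAC (SMAD, 49.6%) and GGAATG (TEAD, 14.7%). None of these exact letters was found in the windows of Mfge8 and Cilp. Near matches, such as TATATAAG in the Cilp window, were not counted. The letters TATAAA were found at position -26 in 1 window of Postn, the only match close to the start. Those of Thbs2 (-126, on the opposite strand) and Tnc (-205 and -126) lay further upstream. No window of a member held the AP-1 or TEAD letters. SMAD letters were found in the windows of Sparc, Thbs2 and Tnc and in the other window of Postn, and CCAAT in that of Thbs2 and in the same other window of Postn, which is not printed. These matches are a description of the letters only. The windows of Mfge8, the most strongly raised of the 3 abundant members, and of Postn, which overlapped between genotypes (the window with the TATA box), are printed 5′ to 3′ on the gene's strand, with the TATA box in capitals.
Mfge8, chr7:79149011-79149310, minus strand: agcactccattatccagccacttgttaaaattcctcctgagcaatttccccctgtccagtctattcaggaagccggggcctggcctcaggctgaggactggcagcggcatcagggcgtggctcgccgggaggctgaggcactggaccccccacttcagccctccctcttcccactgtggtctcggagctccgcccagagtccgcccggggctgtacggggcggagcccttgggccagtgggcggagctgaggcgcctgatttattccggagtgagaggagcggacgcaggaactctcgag
Postn, chr3:54360857-54361156, plus strand: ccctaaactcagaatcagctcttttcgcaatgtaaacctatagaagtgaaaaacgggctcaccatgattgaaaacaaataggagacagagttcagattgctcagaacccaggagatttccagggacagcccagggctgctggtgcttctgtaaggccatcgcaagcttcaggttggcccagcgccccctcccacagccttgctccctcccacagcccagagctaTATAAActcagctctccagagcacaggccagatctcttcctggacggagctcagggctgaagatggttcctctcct

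Annotated genes overlap some members on the opposite strand, namely Apol7d at Fn1, Gm26703 at Sparcl1, Gm29233 at Thbs1 and 8030451A03Rik at Tnc. The first 3 had 0 counts in every library, and the one at Tnc was not measured in the table. Mfge8, Sparc, Thbs2, Postn and Cilp overlapped no other annotated gene.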

How the data were processed

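RNA of BAT from 4 WT and 4 db/db mice was sequenced as single-end mRNA libraries, 1 per mouse. The authors deposited raw counts per gene, made by trimming the reads with bbduk, alignment to mm10 with STAR and counting with HTSeq-count. Strand use and molecular identifiers are not stated. GEO's list of tools names others, with no role. A second, normalized table and a sample sheet were not used. Of 31053 genes 30934 matched the GENCODE M21 annotation by Ensembl gene identifier, and the 119 others held at most 0.00758% of a library. The listed genes were then looked up by symbol.

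Genes were filtered with filterByExpr (minimum count 10, minimum total 15), scaled by TMM and tested with edgeR 4.0.16 in R 4.3.3 (quasi-likelihood F test, genotype only, Benjamini-Hochberg adjusted p under 0.05 over 9264 genes). Standard errors were derived from the F statistic, and intervals are 95%. CPM are counts relative to the TMM-scaled total of the filtered genes, and log2 CPM used a prior count of 2. Values at 0 were bounded with 3 counts per library. The code was tested on simulated data. The members and all lists were chosen with earlier results of these data known, so members have no p-value. Named genes were the 9 members, the 2 largest rises and falls of each list (adjusted p under 0.05, mean of at least 5 CPM) and the 5 genes most like the members within genotypes. Alternatives were RLE, upper quartile and total scaling, DESeq2 1.42.0, limma 3.58.1 (voom), other count filters, leaving out mitochondrially encoded genes, a replicate block, a skeletal muscle score as covariate, a prior count of 0.5 and leaving out each library. Coding sequences came from GENCODE M21 and promoter windows from RefSeq.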

Additional observations from a re-analysis of the deposited data

Results flagged for a closer look

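Fn1 in WT replicate 4 was 14.9 CPM (35 counts), against 2.95 to 4.88 CPM (7 to 13 counts) in the other WT libraries, a gap that Dixon's criterion for 4 samples sets apart. Among the 17 groups of 4 libraries examined for the members it was the 1 value set apart, and chance alone gives 0.85. The same library had the highest skeletal muscle marker sum of the WT group (1652 CPM), and its part in the Fn1 value was not tested.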

How the results depend on the processing

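Low counts limit Fn1, Thbs1, Thbs2, Cilp and Tnc in WT. The number of genes called was 2568, and was 471 with the skeletal muscle score as covariate, which also gave 3 called members instead of 6, 0 integrin subunits instead of 2, 0 other receptors instead of 5, 4 other matricellular genes instead of 9 and 6 uptake genes instead of 12; the score is higher in db/db, so that it and genotype share information. Other receptors called numbered 3 with library totals only and 3 with DESeq2. With at least 10 counts in every library 2 members and 5 other matricellular genes were called, of 4 and 7 tested. Leaving out 1 library at a time gave 2236 to 2483 genes, 6 to 6 members, 1 to 2 integrin subunits, 2 to 5 other receptors, 9 to 12 other matricellular genes, 9 to 12 uptake genes and a median r between members of -0.019 to 0.49, the lowest without db/db replicate 1 and below 0 only there. Of 123 refitted values of single members, those of Cilp not included, 119 moved by less than 1 SD. Replicate numbers do not pair the mice: same-numbered libraries correlated with r = 0.04, 0.05, -0.08 and -0.01, and the fit with the replicate block called 2557 genes. The cause of these changes was not tested.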
